A study of Mus musculus with 7 samples.

Results

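Cholesterol is built from acetyl-CoA by a chain of enzymes that runs through mevalonate, isoprenoids, squalene and lanosterol. Its genes are switched together by the membrane-bound transcription factor SREBP2, which is released from the endoplasmic reticulum when sterols are low, and INSIG1 holds it there when sterols are plentiful. In the mammary gland this chain is best known for the lipid it supplies to milk, and the mice described here had never nursed. The description covers 8 genes of the chain, taken as the rows of their symbols in the raw count matrix among 27998 genes: 6 enzymes (Hmgcs1, Idi1, Fdps, Fdft1, Sqle and Cyp51), the retention factor Insig1 and the regulator Srebf2.

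Single-cell RNA-seq was performed on dissociated abdominal mammary glands from 3 young (3–4 months old) and 4 aged (13–14 months old) nulliparous females, whose mixed background combined FVB, 129 and C57BL/6J, all sampled at diestrus, without sorting and with the lymph nodes removed. The labels and methods name no transgene and no treatment. The authors assigned 13684 cells to 13 cell types, here followed in hormone-sensing luminal cells (luminal HS), alveolar luminal cells (luminal AV), myoepithelial cells, fibroblasts, pericytes and vascular endothelial cells, which had at least 15 cells in every mouse. Letters A to D name different animals within each age.

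The matrix held between 6652599 and 16999625 UMIs (unique molecules counted) per mouse, and the median cell had 4758.5 to 7109.5. Libraries of the same age shared 3 to 9 cell barcodes in each pair. Barcodes are written differently in the young and the aged libraries, so a count of those shared between ages says nothing, and age and the handling of the libraries cannot be told apart in this design. The defining markers fitted the labels of myoepithelial and luminal HS cells. Krt5, Krt14 and Krt17 summed to 9000 to 11744 CPM (UMIs scaled to a library total of 1000000) in myoepithelial cells. In luminal HS cells they summed to 13.9 to 140, and Prlr, Pgr and Esr1 to 869 to 1974. Pericyte libraries held both pericyte and endothelial markers. Rgs5 and Notch3 summed there to 946 to 1532 in young and 489 to 961 in aged mice, and Pecam1 and Cdh5 to 1065 to 1175 and 463 to 712. Scaled to CPM, the summed UMIs of a cell type give each gene's share of the library and not the number of such cells.

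The 8 genes lie on 5 chromosomes (positions on GRCm38, GENCODE vM21). Hmgcs1 spans chr13:119690379-119708260 and Idi1 chr13:8885501-8892451. Insig1 spans chr5:28071363-28078662 and Cyp51 chr5:4081145-4104746. Sqle (chr15:59315077-59331192) and Srebf2 (chr15:82147181-82205379) share a chromosome, Fdps lies at chr3:89093588-89101959 and Fdft1 at chr14:63145150-63179578. Fdps overlaps a second protein-coding model on its own strand (Gm43738), so its reads are uncertain. The ends of Cyp51 and Fdft1 overlap Akap9 and Ctsb on the opposite strand.

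Promoters are shown for the members whose window holds a sterol element-like motif, because its letters resemble the sterol regulatory element that SREBPs bind. RefSeq promoter windows on GRCm38.p6, from 250 bases before to 50 bases after the annotated start, matched 5 of the 8 genes (Hmgcs1, Idi1, Cyp51, Insig1 and Srebf2). Capitals mark every match, on either strand, to CACNCCAC (sterol element-like), CCAAT (the box bound by NF-Y) or GGGCGG (the box bound by Sp1). The sequences run 5′ to 3′ along the gene, from chr13:119690101-119690400 (plus strand) for Hmgcs1 and from chr5:28071162-28071461 (plus strand) for Insig1.
Hmgcs1: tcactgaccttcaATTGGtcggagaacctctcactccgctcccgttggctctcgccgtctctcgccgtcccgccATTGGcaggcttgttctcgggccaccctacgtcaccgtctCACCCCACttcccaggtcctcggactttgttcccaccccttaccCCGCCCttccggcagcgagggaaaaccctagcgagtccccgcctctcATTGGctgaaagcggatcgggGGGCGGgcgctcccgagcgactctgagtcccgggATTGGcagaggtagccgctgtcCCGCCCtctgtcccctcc
Insig1: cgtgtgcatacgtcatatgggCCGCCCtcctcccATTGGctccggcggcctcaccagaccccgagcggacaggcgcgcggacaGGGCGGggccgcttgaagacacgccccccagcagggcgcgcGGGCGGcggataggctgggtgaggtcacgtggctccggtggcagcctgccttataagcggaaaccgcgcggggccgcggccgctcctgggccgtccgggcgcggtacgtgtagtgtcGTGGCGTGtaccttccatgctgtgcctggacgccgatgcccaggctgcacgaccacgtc

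In Hmgcs1 the match lies at bases -136 to -129 on the gene's strand, with the first transcribed base counted as 1, and is the full CACCCCAC, a narrower form contained in CACNCCAC. In Insig1 it lies at -9 to -2 on the opposite strand, counted from the RefSeq start. The GENCODE gene begins further upstream, at base 28071363, so by that model the match lies inside the gene. CACNCCAC occurred in 2 of the 5 promoters and in 6.12% of 27025 promoters of the same length, and CACCCCAC in 1 of the 5 and in 2.77%. CCAAT and GGGCGG each occurred in 5 of the 5, against 37.9% and 35.9% of all promoters. Of 13 promoters of other synthesis genes, 1 held CACNCCAC, 11 held CCAAT and 11 held GGGCGG. Hmgcs1 held 4 CCAAT matches and Idi1 held 2, while Srebf2 held 5 GGGCGG matches. These matches are letters in a window and were not measured as sites of binding.

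**Figure D1:**
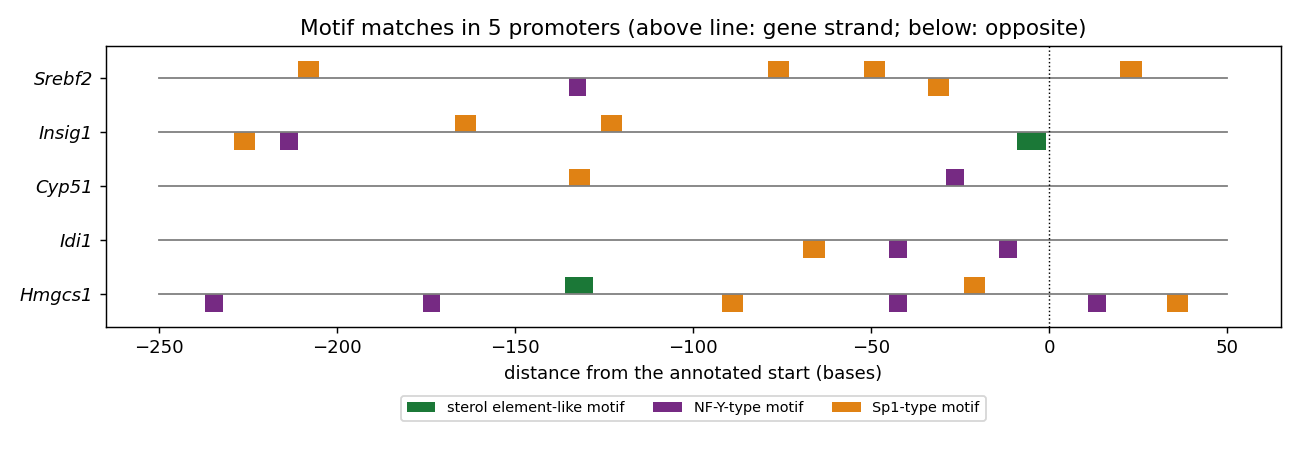
Matches to the 3 motifs in the 5 promoters, plotted by distance in bases from the annotated start (x axis), 1 line per gene; boxes above a line lie on the gene's strand and boxes below on the opposite strand. The sterol element-like motif appears in Hmgcs1 and Insig1, and NF-Y-type and Sp1-type motifs appear in all 5.

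Among the 6 main types, the enzymes had their highest mean over all 7 mice in luminal HS or myoepithelial cells, and Insig1 had it in fibroblasts. Levels are CPM, given as mean ± SD over 7 mice, and are compared for 1 gene at a time. Hmgcs1, which makes HMG-CoA, was at 70.9 ± 58.7 in luminal HS cells, 36.5 ± 18.4 in myoepithelial cells, 30.5 ± 11.1 in fibroblasts, 19.1 ± 11.9 in pericytes, 17.2 ± 4.76 in luminal AV cells and 14.0 ± 6.40 in vascular endothelial cells. No pair of neighbours in that order differed by more than the SD of the within-mouse difference, although luminal HS exceeded myoepithelial cells in 7 of 7 mice. Aged D alone held 194 CPM of Hmgcs1 in luminal HS cells, against 15.2 to 84.2 in the other mice. In the young mice alone fibroblasts had the highest mean (39.6), ahead of luminal HS cells (36.4).

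Sqle, which oxidizes squalene in a rate-limiting step, was at 77.3 ± 28.8 in myoepithelial cells, 42.2 ± 4.47 in luminal HS cells, 18.2 ± 10.6 in fibroblasts and 18.2 ± 5.53 in luminal AV cells. Pericytes (5.05 ± 5.76) and vascular endothelial cells (4.92 ± 2.72) were lowest. Neighbours differed beyond their spread from myoepithelial to luminal HS (higher in 6 of 7 mice), from luminal HS to fibroblast (7 of 7) and from luminal AV to pericyte (7 of 7). Cyp51, the lanosterol demethylase, was at 60.3 ± 29.7 in myoepithelial cells, with every mouse above its own fibroblasts (20.4 ± 11.2). Luminal HS cells (20.3 ± 9.35) did not differ from fibroblasts beyond the spread and lay above luminal AV cells (11.9 ± 3.70) beyond it, ahead of pericytes (5.98 ± 4.94) and vascular endothelial cells (3.87 ± 2.21).

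Fdft1, the squalene synthase, and Fdps, which makes farnesyl diphosphate, were led by luminal HS cells. Fdft1 was at 72.5 ± 17.4 there and 48.3 ± 23.3 in myoepithelial cells, a difference within the spread, and dropped beyond it to 19.3 ± 3.36 in luminal AV cells. It was at 14.2 ± 12.2 in fibroblasts, 7.10 ± 2.88 in pericytes and 5.27 ± 3.66 in vascular endothelial cells. Fdps was at 65.9 ± 21.3 in luminal HS cells and, lower beyond the spread, at 38.6 ± 22.6 in myoepithelial cells. Its remaining means ran from 26.0 ± 10.8 in luminal AV cells through fibroblasts (20.7 ± 21.2) and pericytes (19.7 ± 10.1) to 13.8 ± 5.19 in vascular endothelial cells, with no neighbours apart beyond the spread.

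Idi1, the isopentenyl diphosphate isomerase, ran from 23.9 ± 20.8 in myoepithelial cells to 5.06 ± 2.38 in vascular endothelial cells, and only the last step, from luminal AV cells (10.6 ± 3.48), exceeded the spread. It was at 18.2 ± 7.52 in luminal HS cells, 13.4 ± 10.7 in pericytes and 10.8 ± 8.66 in fibroblasts. The place of myoepithelial cells came from the aged mice (mean 39.9). In the young mice they had the lowest mean of the 6 types (2.52), and luminal HS cells had the highest (15.2). Srebf2, which encodes SREBP2, showed no step beyond the spread: 35.3 ± 7.80 in luminal HS, 32.5 ± 8.30 in myoepithelial, 24.3 ± 5.96 in luminal AV, 22.2 ± 12.0 in fibroblast, 18.7 ± 7.46 in pericyte and 11.3 ± 2.17 in vascular endothelial cells. Insig1 followed another order. Fibroblasts held 64.5 ± 31.9, beyond the spread above pericytes at 22.5 ± 9.92, and then came myoepithelial (20.7 ± 14.8), vascular endothelial (19.9 ± 5.20), luminal AV (13.6 ± 4.74) and luminal HS cells (11.5 ± 6.67). In all, 9 of 40 neighbouring pairs differed beyond the spread.

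**Figure D2:**
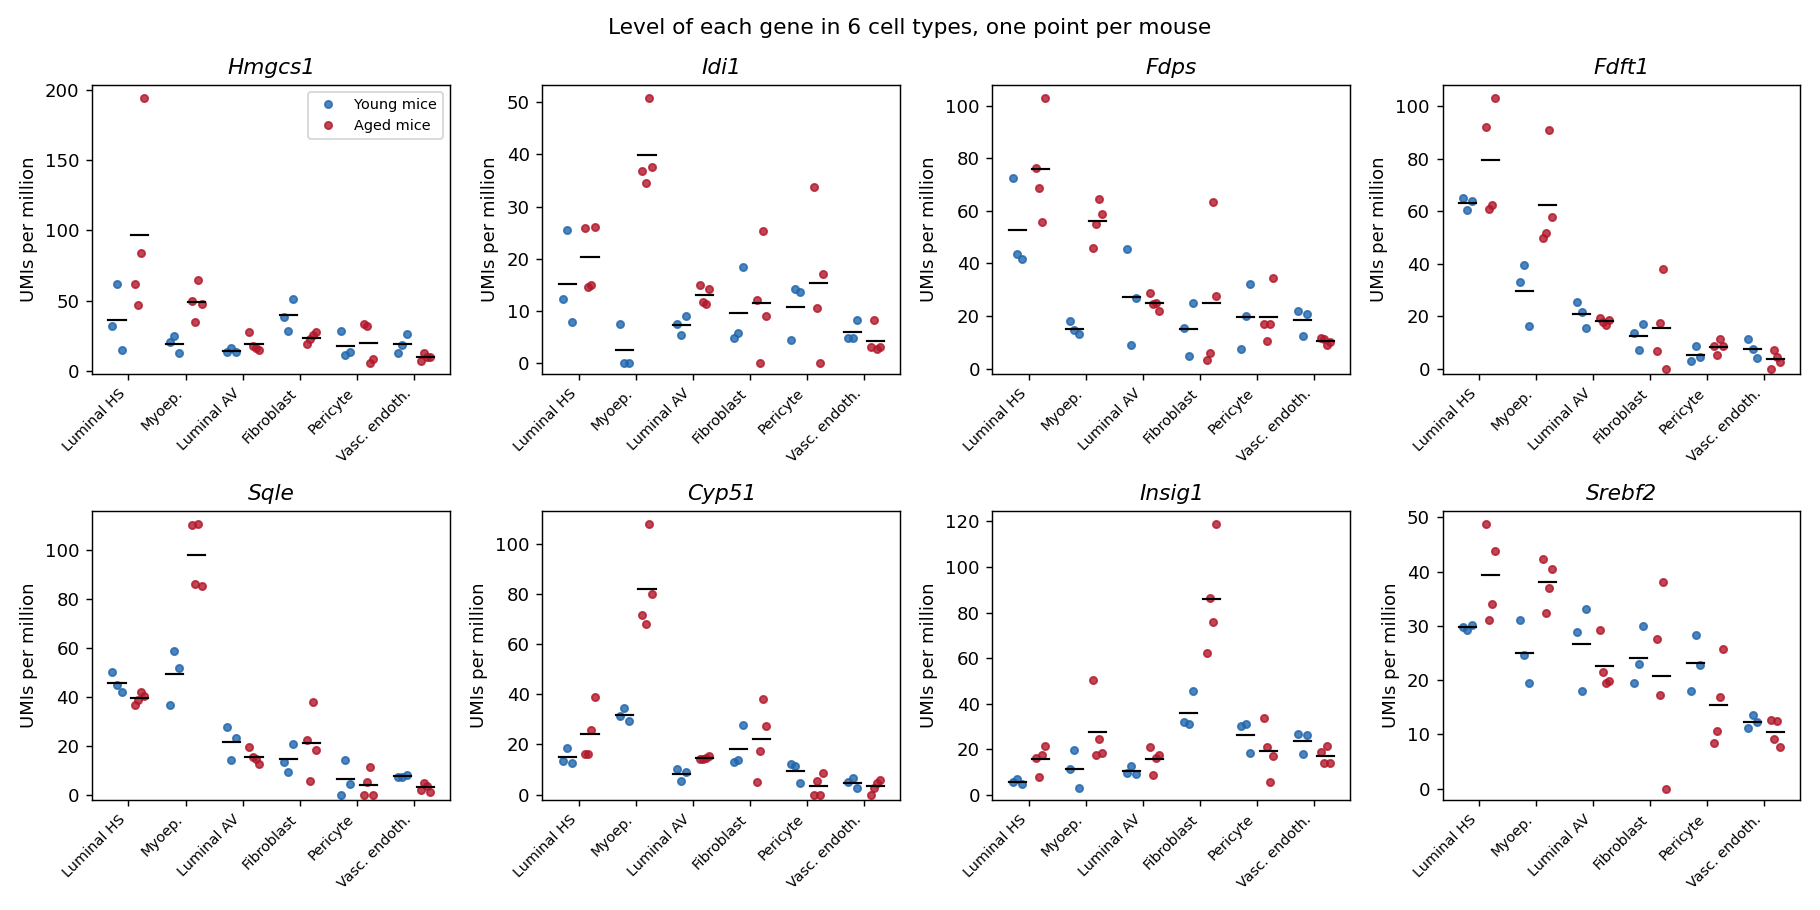
Each panel shows 1 gene, with CPM on the y axis and 6 cell types on the x axis. Points are mice (blue young, n = 3; red aged, n = 4) and black bars are group means. In myoepithelial cells the aged mean stands above the young mean for each gene shown, and the points of the groups overlap for Insig1. The share of all genes with such a pattern was not counted. In the age test of these cells, 12.8% of 6740 genes rose and 14.8% fell.

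The rarer immune and lymphatic types gave few molecules, so their UMIs were pooled over mice, with exact 95% Poisson intervals that cover counting error only. Insig1 reached 101 CPM (interval 76.9 to 130) in the stromal-like Ma macrophages, of which 121 of 122 cells came from young mice. In the ductal-like Mb macrophages it was at 8.71 (3.20 to 19.0) in young mice and at 95.8 (53.6 to 158) in aged mice, the latter from 22 cells. Mouse by mouse these groups overlapped, with 3.85, 52.1 and 0 in the young and 105, 100.2, 38.7 and 123 in the aged. Insig1 was at 29.5 (20.4 to 41.2) in dendritic cells and at 53.5 (25.7 to 98.4) in NK cells. Srebf2 was at 38.2 (27.7 to 51.2) in dendritic cells and 8.28 (3.33 to 17.1) in Mb macrophages. Among the enzymes, Fdps was at 17.4 (10.6 to 26.8), Hmgcs1 at 15.6 (9.25 to 24.7), Cyp51 at 13.0 (7.28 to 21.5) and Fdft1 at 3.47 (0.945 to 8.88) in dendritic cells. Fdps was at 15.4 (8.19 to 26.3) in Mb macrophages and Fdft1 at 23.3 (9.38 to 48.1) in T and B cells. In the 170392 UMIs of lymphatic endothelial cells Fdps was at 29.3 (9.53 to 68.5), while Idi1, Fdft1 and Cyp51 had 0 UMIs (interval up to 21.6 CPM; 3 UMIs would be 17.6 CPM). In the rare HS-AV luminal cells Fdft1 was at 43.3 (33.2 to 55.5) in the young mice, with 34.1 to 54.5 from mouse to mouse, and it ranged from 0 to 183 in 3 aged mice of 4 to 6 such cells each.

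Luminal AV cells, the milk-lineage progenitors, were tested against 4 other types within mice with edgeR's quasi-likelihood test, a gene being called where its p, adjusted by Benjamini-Hochberg over 10934 genes, was under 0.05 and its fold at least 1.5. The cell types had been clustered on these same cells, so the calls describe the types rather than test them. Against luminal HS cells, 4 of 8 genes were lower in luminal AV cells, beside 18.9% of all genes lower and 21.7% higher. Fdft1 was 3.41-fold lower (log2 -1.77 ± 0.25 SE, edgeR adjusted p = 2.37e-07), and Hmgcs1, Fdps and Sqle 3.12-, 2.25- and 2.13-fold lower. Against myoepithelial cells, 5 of 8 were lower (19.8% of all genes were lower and 28.3% higher): Cyp51 by 4.26-fold, Sqle by 3.95-fold, Fdft1 by 2.31-fold, Idi1 by 2.11-fold and Hmgcs1 by 1.87-fold. That count was 2 in the young mice alone (Sqle and Cyp51) and 8 in the aged mice alone, whereas against luminal HS cells it was 4 in each age. These were separate fits of 3 and 4 mice, and the share of all genes called in each was not counted. Myoepithelial libraries held 40 to 187 cells in young and 125 to 662 in aged mice, so these counts cannot be read as an age difference.

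Against fibroblasts, Insig1 was 3.49-fold and Hmgcs1 1.94-fold lower in luminal AV cells and Fdps 1.78-fold higher, beside 24.2% of all genes lower and 27.6% higher. Of these 3 calls, 1 was left without the Young A mouse and 1 with DESeq2. Within each age, Insig1 was called in both. Hmgcs1 was called in the young mice (-1.54) and had the opposite sign in the aged (0.20, not called), Fdps was called in the aged mice alone (1.35), and Cyp51 was called lower in luminal AV cells in the young alone (-1.10). Against vascular endothelial cells, 6 of 8 genes were higher in luminal AV cells (28.3% of all genes were higher and 24.5% lower), led by Sqle at 4.02-fold, Fdft1 at 3.68-fold and Cyp51 at 3.29-fold. Srebf2, Idi1 and Fdps were 2.42-, 2.38- and 2.09-fold higher. Hmgcs1 (log2 0.52 ± 0.38) and Insig1 (-0.46 ± 0.25) were not called. In the young mice alone 3 genes were higher in luminal AV cells (Sqle, Fdft1 and Srebf2) and Insig1 was lower (-1.07, edgeR adjusted p = 0.00811), while Cyp51 was not called (0.96). In the aged mice alone 7 were higher. The share of all genes called in the fits of a single age was not counted, so the counts of the ages cannot be read as an age difference.

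The comparison of aged with young mice asks which cell types alter their expression with age. In myoepithelial cells, the contractile basal layer, 7 of the 8 genes rose in aged mice, and the eighth, Srebf2, had a difference of 0.58 ± 0.28 (log2 ± SE) that was not called. By comparison, 12.8% of the 6740 genes tested rose and 14.8% fell. Idi1 entered the test through the aged mice alone, and without it the count was 6 of 7. The median difference was 1.37 on the log2 scale with and without Idi1, against 0.01 for all tested genes. Each comparison used edgeR's quasi-likelihood test on UMIs summed per mouse, with adjusted p-values over all tested genes.

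Idi1 moved most. Young mice A, B and C held 7.55, 0 and 0 CPM, and aged mice A to D held 36.7, 34.4, 50.8 and 37.7. The young values rest on 8 UMIs in all 3 libraries, pooled to 5.09 CPM (exact Poisson interval 2.20 to 10.0), against 37.4 (32.8 to 42.4) from 239 UMIs in aged mice. No young library reached the low-count filter of 9.44 CPM, so Idi1 could only have been called higher. The fitted difference was 3.06 ± 0.48 (log2, adjusted p = 0.000271), and it ran from 2.79 to 8.49 as each mouse was left out, the highest without Young A.

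Fdps and Cyp51 separated the ages without overlap and were at or over the filter in all 7 mice. The young Fdps values rest on 19, 3 and 4 UMIs in Young A, B and C, where 3 is the floor. Young libraries held 7 to 33 UMIs of Cyp51. Fdps was at 17.9, 14.7 and 13.0 in the young mice and at 45.9, 55.1, 64.6 and 58.8 in the aged mice, a rise of 1.87 ± 0.30 (log2, 3.66-fold, adjusted p = 0.000290). Cyp51 was at 31.2, 34.4 and 29.2 in the young and 71.7, 67.9, 108 and 79.9 in the aged mice, 2.74-fold higher (1.46 ± 0.27, adjusted p = 0.000841). The lowest aged value of each gene was more than the highest young value.

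Hmgcs1, Sqle and Fdft1 followed with smaller folds. Young A, B and C held 22, 5 and 4 UMIs of Hmgcs1 and 39, 12 and 16 of Sqle. Of Fdft1 the young libraries held 5 to 35 UMIs. Hmgcs1 was at 20.8, 24.6 and 13.0 in the young and 49.6, 35.1, 64.6 and 47.9 in the aged mice (1.38 ± 0.32, 2.60-fold, adjusted p = 0.00416). Sqle was at 36.8, 59.0 and 51.9 in the young and 110, 86.5, 111 and 85.6 in the aged mice (1.19 ± 0.24, 2.28-fold, adjusted p = 0.00152). Fdft1 was at 33.0, 39.3 and 16.2 in the young and 49.6, 51.7, 90.8 and 57.6 in the aged mice (1.12 ± 0.31, 2.17-fold, adjusted p = 0.0141). The groups did not overlap for any of these 3 enzymes, but without Young A the Fdft1 difference of 1.34 missed the threshold (adjusted p = 0.0519). The share of all genes whose groups did not overlap was not counted.

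The 2 regulators were less distinct. Young A, B and C held 12, 4 and 1 UMIs of Insig1. Insig1, itself a target of SREBP2, was at 11.3, 19.7 and 3.25 in the young and 50.5, 17.6, 24.6 and 18.3 in the aged mice, so the groups overlapped. Its rise of 1.37 ± 0.49 was called narrowly (adjusted p = 0.0475) and missed the threshold without Young A, Young C, Aged A or Aged C (log2 1.50, 1.14, 0.96 and 1.40, adjusted p = 0.187, 0.125, 0.0996 and 0.0541). Srebf2 was at 31.2, 24.6 and 19.5 in the young and 42.3, 32.4, 36.9 and 40.5 in the aged mice, without overlap, and its adjusted p was 0.125.

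The young myoepithelial libraries were small, with 187, 40 and 54 cells in Young A, B and C against 125 to 662 in aged mice. When every library was thinned to the total of the smallest, 3 of the 8 genes still passed the low-count filter, all 3 were higher in aged mice, and 2 were called (Cyp51 and Fdft1). Without Young B and Young C together, 5 were called, with a lone young mouse assumed to vary like the aged ones. Markers of other cell types moved in both directions in these libraries. The hormone-sensing markers Prlr, Pgr and Esr1 summed to 34.9 to 108 CPM in young and 5.13 to 21.1 in aged mice, the fibroblast markers Col1a1, Col1a2 and Pdgfra to 39.3 to 127 and 3.08 to 23.0, and the leukocyte markers Ptprc and Cd74 to 157 to 237 and 34.1 to 71.3. The alveolar markers summed to 531 to 631 in young and 284 to 360 in aged mice through Mfge8 (mean 561 and 311), whereas Elf5 (8.80 and 17.9) and Kit (0.629 and 4.77) had the higher mean in aged mice. The 6 luminal and milk markers overlapped, with sums that averaged 1910 in young and 2185 in aged mice, and among them Csn3 averaged 49.5 and 322 and Krt8 528 and 726. Pericyte markers (0 to 6.61 and 1.38 to 12.9) and endothelial markers (9.74 to 24.6 and 3.99 to 30.8) overlapped as well, and the adipocyte markers summed to at most 1.54. The median mitochondrial share was 4.82% in young and 3.58% in aged myoepithelial cells. The part of these in the result was not tested.

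**Figure D3:**
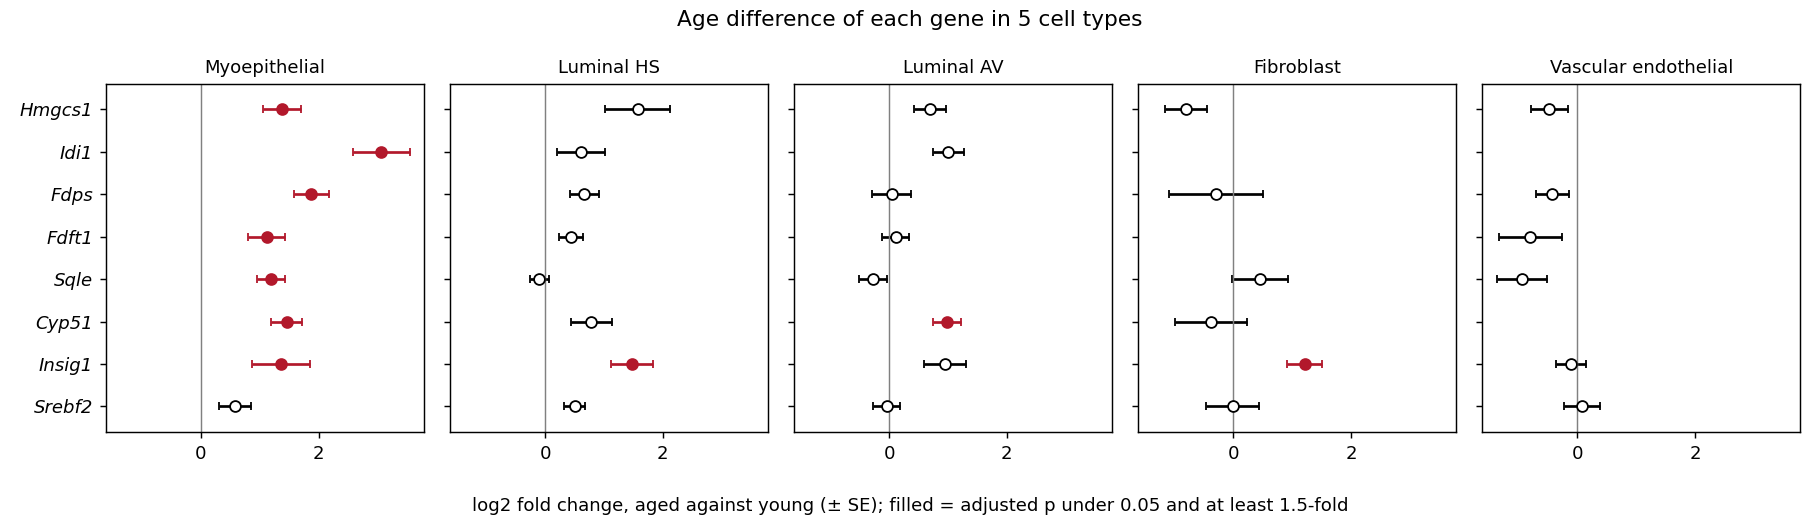
The x axis is the fitted log2 difference of aged against young mice with its SE, 1 panel per cell type and 1 row per gene. Filled red points were called (adjusted p under 0.05 and at least 1.5-fold), open points were not, and a gene with no point did not pass the low-count filter. The 7 filled points in myoepithelial cells lie between 1.12 and 3.06, and the other panels hold 3 filled points in all.

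Luminal HS cells leaned the same way with 1 call. Of the 8 genes, 7 were higher in aged mice, with a median of 0.64 (log2) against 0.02 for all tested genes. An unadjusted edgeR p under 0.05 was reached by 6 of them, and by 9 of the 23 other pathway genes tested. The shares of all genes that were higher or had such a p were not counted. Insig1 was at 5.83, 6.90 and 4.90 in the young and 16.3, 7.79, 17.7 and 21.3 in the aged mice, 2.79-fold higher (1.48 ± 0.35, adjusted p = 0.0345), where 3.93% of 8457 genes rose and 2.33% fell. The call was lost without each mouse other than Aged B (adjusted p from 0.0592 to 0.150) and with library size alone as scaling (adjusted p = 0.0519). Hmgcs1 was at 32.1, 62.1 and 15.2 in the young and 61.8, 47.2, 84.2 and 194 in the aged mice, and its difference of 1.57 ± 0.55 was not called (adjusted p = 0.111). It was 0.91 without Aged D. Sqle had a difference of -0.10 ± 0.16, and the remaining 5 genes had differences between 0.44 and 0.79 that were not called. In the same libraries the myoepithelial keratins summed to 13.9 to 22.2 CPM in young and 38.0 to 140 in aged mice, the hormone-sensing markers to 1561 to 1974 and 869 to 1526, the leukocyte markers to 57.8 to 74.3 and 5.43 to 43.3, and the fibroblast markers to 5.31 to 48.5 and 0 to 4.06. Their part in the result was not tested.

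In luminal AV cells Cyp51 was called, at 10.4, 5.40 and 9.09 in the young and 14.1, 14.2, 14.7 and 15.3 in the aged mice (0.98 ± 0.24, 1.98-fold, adjusted p = 0.0396), beside 2.90% of 11012 genes higher and 3.26% lower. Idi1 was at 7.50, 5.40 and 9.09 in the young and 14.97, 11.7, 11.5 and 14.2 in the aged mice and just missed (1.00 ± 0.26, adjusted p = 0.0513). The Cyp51 call was lost without each of the 7 mice in turn (log2 0.87 to 1.10, adjusted p = 0.0590 to 0.130), although Insig1 was called without Aged B (1.15, adjusted p = 0.0318). Fdps varied widely among young mice, from 8.99 to 45.6, and showed no difference beyond its error (0.04 ± 0.33). With library size alone as scaling, 0 of 8 genes were called and the median of all genes shifted by -0.27. In these libraries the hormone-sensing markers summed to 168.5 to 261 CPM in young and 25.3 to 31.6 in aged mice, the fibroblast markers to 23.4 to 107 and 2.05 to 4.61, the leukocyte markers to 77.3 to 126 and 11.9 to 59.9, and the alveolar markers to 1758 to 2673 and 2749 to 4130, while the myoepithelial keratins overlapped (39.7 to 95.3 and 45.3 to 121). The median mitochondrial share was 3.46% in young and 2.26% in aged cells. The part of these was not tested.

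In fibroblasts 6 of the 8 genes passed the low-count filter and Insig1 was called, beside 2.07% of 5513 genes higher and 1.11% lower. Insig1 was at 31.8, 31.1 and 45.5 in the young and 62.1, 86.3, 76.0 and 119 in the aged mice, 2.32-fold higher (1.21 ± 0.29, adjusted p = 0.0398). Without Young A or B or any 1 aged mouse the call was lost (log2 1.05 to 1.44, adjusted p = 0.0625 to 0.108). Hmgcs1 pointed down, from 38.5, 28.8 and 51.6 to 19.0, 23.0, 25.3 and 27.4, without overlap and not called (-0.81 ± 0.36, adjusted p = 0.226). Aged fibroblasts were few, with 121, 41, 15 and 17 cells in Aged A to D, and the fitted Fdps and Cyp51 differences (-0.30 ± 0.80 and -0.38 ± 0.61) had the opposite sign to the plain means. The endothelial markers Pecam1 and Cdh5 summed to 18.0 to 62.1 CPM in young and 0 to 1.72 in aged fibroblast libraries, the leukocyte markers to 56.5 to 328 and 11.5 to 38.0, the hormone-sensing markers to 75.2 to 93.2 and 17.3 to 36.6, and the myoepithelial keratins to 12.5 to 37.0 and 57.5 to 98.3. The part of these was not tested.

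In vascular endothelial cells 0 of the 6 genes tested were called by edgeR, and 0 by DESeq2, where 14.7% of 7864 genes rose and 12.0% fell. Sqle alone had an unadjusted p under 0.05, at 7.29, 7.08 and 8.25 in the young and 2.12, 4.89, 3.57 and 1.27 in the aged mice (-0.95 ± 0.43, adjusted p = 0.115), where no aged library reached the filter of 6.98 CPM. With library size alone as scaling, which moved the median of all genes by -0.36, Sqle, Hmgcs1 and Fdps were called lower in aged mice (log2 -1.30, -0.84 and -0.79). Of the leukocyte markers, Cd74 averaged 416 CPM in the young and 3241 in the aged endothelial libraries and Ptprc 1.33 and 0.789. The myoepithelial keratins summed to 9.80 to 36.4 in young and 62.4 to 175 in aged mice, the fibroblast markers to 14.7 to 75.6 and 0.698 to 3.18, the pericyte markers Rgs5 and Notch3 to 92.8 to 341 and 4.89 to 59.7, and the adipocyte markers Adipoq, Plin1 and Plin4 to 25.3 to 42.6 and 0 to 0.698. The part of these was not tested. In pericytes, Mb macrophages and the T and B cells none of the 8 genes passed the low-count filter, so no test was made there.

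Whether the age difference itself varied among luminal AV, luminal HS, myoepithelial, fibroblast and vascular endothelial cells was tested in 1 fit with a term for age in each type. It varied for 6 of the 8 genes, beside 26.5% of all genes: Sqle (edgeR adjusted p = 0.00162), Hmgcs1 (0.00472), Fdps (0.00489), Cyp51 (0.0265), Insig1 (0.0346) and Idi1 (0.0415). Fdft1 (0.0587) and Srebf2 (0.248) missed the threshold. Without Young C, 3 genes passed.

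Pairs of types in the same fit placed myoepithelial cells apart for several enzymes against fibroblasts and vascular endothelial cells. Against the luminal types fewer genes passed the threshold. Hmgcs1 (-0.18 ± 0.61) and Insig1 (-0.06 ± 0.53) had no larger age difference in myoepithelial than in luminal HS cells. Against luminal HS cells the age difference of Sqle was larger in myoepithelial cells by 1.38 ± 0.32 (log2, adjusted p = 0.00649), the only one of the 8 past the threshold (7.23% of all genes). Against luminal AV cells Fdps (1.90 ± 0.50, adjusted p = 0.0125) and Sqle (1.51 ± 0.34, adjusted p = 0.00327) passed, beside 10.5% of genes. Against fibroblasts 4 genes passed (Idi1, Fdps, Hmgcs1 and Cyp51, by 3.23, 2.63, 2.49 and 2.02), beside 4.52%. Against vascular endothelial cells 4 passed (Idi1, Fdps, Sqle and Fdft1, by 2.92, 2.54, 2.26 and 2.03), beside 9.37%. These pairs share the myoepithelial libraries, so they are not independent of each other.

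The other genes of the pathway were followed in a list of 31, of which 20 passed the low-count filter in myoepithelial cells, where 4 rose and 3 fell (5 of these 20 were called by DESeq2, none of them an efflux gene), beside 12.8% of all genes higher and 14.8% lower. Without the 3 genes that a single age brought past the filter (Ggps1, Mvd and Abca1), 2 of 17 rose and 2 fell. All 4 that rose were on the synthesis list, which includes Ggps1, an enzyme of a side branch from farnesyl diphosphate. Msmo1, the sterol demethylation enzyme that acts after Cyp51, was at 9.44, 9.83 and 0 in the young and 101, 65.1, 96.9 and 110 in the aged mice (3.71 ± 0.42, adjusted p = 1.81e-05). Ggps1, Mvd and Sc5d rose by 2.47, 1.85 and 1.49 on the log2 scale, and the young libraries held 3.04, 3.66 and 10.99 CPM of them on average. Ggps1 and Mvd were under the filter of 9.44 CPM in every young library, so they too entered the test through the aged mice alone and could only have been called higher.

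The synthesis list was not uniform. Ebp, the sterol isomerase, fell from 55.7, 24.6 and 48.7 in the young to 14.7, 19.6, 21.5 and 16.5 in the aged mice (-1.28 ± 0.30, adjusted p = 0.00430), and Acat2 (0.20 ± 0.32) and Pmvk (-0.21 ± 0.43) were not called. In all, 7 of 14 synthesis genes were tested, with 4 higher, 1 lower and a median of 1.49. Without Ggps1 and Mvd the counts were 2 higher and 1 lower of 5, with a median of 0.20. Of 5 genes of SREBP processing and regulation that were tested, 0 were called by edgeR, 0 by DESeq2 and 0 had an unadjusted p under 0.05, and their median was -0.05. Lrp1, a lipoprotein receptor, fell by 0.94 and was the single call among 5 uptake and storage genes, and Abca1, the cholesterol exporter, fell by 1.72 and was the single call among 3 efflux genes, having entered the test through the young mice, with 1.84 to 4.62 CPM in the aged.

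**Figure D4:**
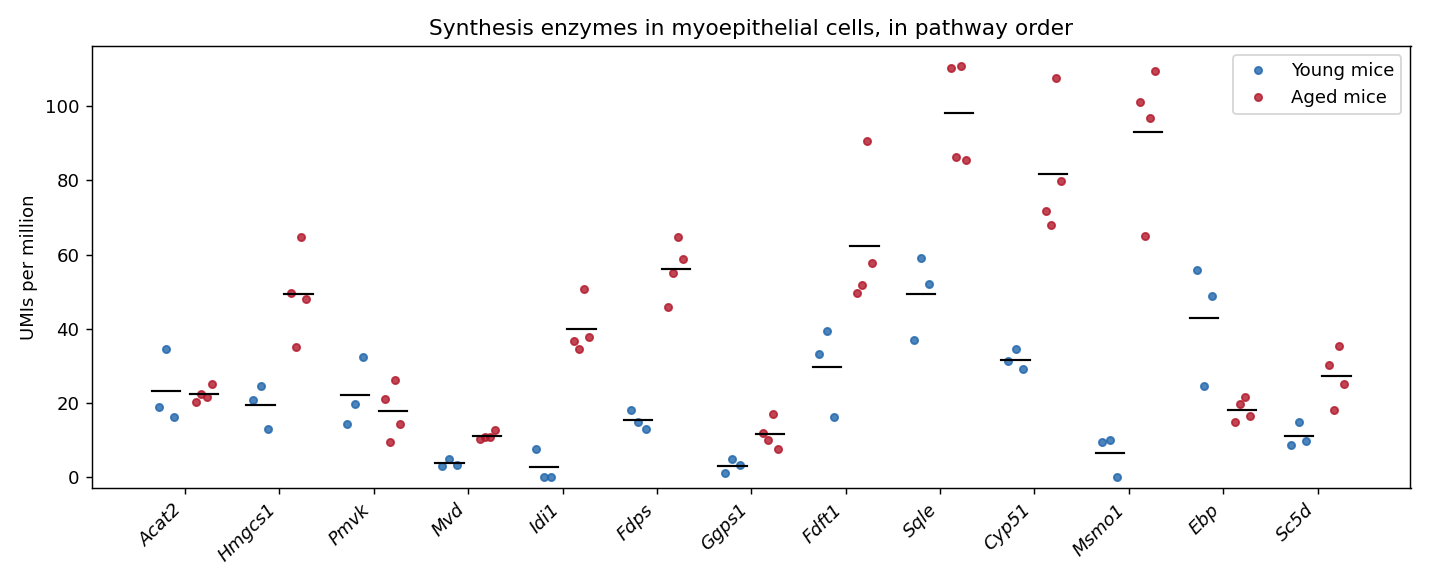
Synthesis enzymes that passed the low-count filter in myoepithelial cells, ordered along the pathway on the x axis, with CPM on the y axis. Ggps1, on a side branch from farnesyl diphosphate, is placed after Fdps. Points are mice (blue young, n = 3; red aged, n = 4) and bars are group means. Msmo1 shows the widest gap, with aged mice from 65.1 to 110 and young mice at or under 9.83, and Ebp lies lower in aged mice.

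Among the listed genes in luminal HS cells, Msmo1 (1.10 ± 0.29, adjusted p = 0.0475) and Sc5d (1.03 ± 0.24, adjusted p = 0.0336) rose in aged mice, among 23 tested, beside 3.93% of all genes higher. In luminal AV cells Srebf1, the paralog of Srebf2 that directs fatty acid synthesis, rose (1.11 ± 0.20), while Lrp1 fell (-2.27 ± 0.49). In fibroblasts 0 of 15 were called by edgeR and 0 by DESeq2, and 3 had an unadjusted p under 0.05. In vascular endothelial cells 2 of 21 rose and 4 fell, beside 14.7% of all genes higher and 12.0% lower, the 4 with the largest fold being Npc1 (-1.67 ± 0.44), Stard4 (-1.35 ± 0.27), Mylip (-1.32 ± 0.18) and Acat2 (1.18 ± 0.30).

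The genes most like each member were sought over 49 mouse-by-type profiles of at least 20 cells, by Pearson's r of log2(CPM + 1) among 7332 genes with a mean of at least 10. These profiles share mice and differ in depth, so r is a description. The pathway gene Msmo1 was the closest of all genes to Idi1 (r = 0.73), followed by Sars (0.58) and Drg2 (0.58). Fdft1 was closest to Rab15, Eya2 and F3 (0.85, 0.83 and 0.83), Sqle to Dsp, Trim29 and Urah (0.81, 0.81 and 0.79), Hmgcs1 to Pdha1, Ctr9 and Tspan3 (0.74, 0.71 and 0.71), and Fdps to Plrg1, Psma2 and Vdac1 (0.76, 0.75 and 0.75). Near Cyp51 ranked Src (first, 0.76) and Pvrl1 (the third, 0.72), and near Srebf2 ranked Blcap (the second, 0.68) and Rab15 (the third, 0.67).

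Among the members themselves, Fdft1 ranked 5 in likeness to Sqle and 4 in likeness to Hmgcs1, and Sqle ranked 4 in likeness to Srebf2. Other pairs ranked far lower, such as Fdps (1382) and Srebf2 (1450) in likeness to Hmgcs1 and Idi1 (1788) in likeness to Sqle. Insig1 stood apart, with Ccl8, Mnda and Maf nearest (0.65, 0.64 and 0.64) and its best fellow member, Hmgcs1, at rank 2263. None of these neighbours of Insig1, nor those named for Fdps, was selected again with at least 50 cells per profile or with Spearman's correlation. With at least 50 cells, Fdft1 came first in likeness to Sqle (0.87) and to Fdps (0.79), and Msmo1 in likeness to Hmgcs1 (0.78). Next to the mean of the 8 standardized members ranked F3 (the second, 0.78), Rab15 (the third, 0.77), Msmo1 (the fourth, 0.74) and Ggt1 (the fifth, 0.74).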

How the data were processed

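Libraries were made with the 10x Chromium 3′ kit v2, and reads were mapped to mm10 with Cell Ranger 2.0 (submitters' processing notes). The authors deposited 1 matrix of raw UMI counts per gene and cell, already filtered on UMIs, genes and mitochondrial share, and a cell table with their cell types (from clusters) and a mitochondrial fraction. The authors assessed doublets, and none were removed here.

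UMIs were summed per mouse and cell type where at least 3 cells were present. edgeR 4.0.16 (filterByExpr, TMM, quasi-likelihood test, R 4.3.3) was run on the raw sums, once per cell type for age and in 1 fit of 5 cell types with mouse as a term for cell types and for age by type. Adjusted p-values are Benjamini-Hochberg over all genes tested, and a call needs an adjusted p under 0.05 and 1.5-fold. SEs are those implied by each test's p. The mouse is the replicate, and nothing in the labels pairs animals. Summed libraries held 78978 to 10032241 UMIs in the 6 main types, and a UMI count of 3 is taken as the floor. Levels are CPM, while fitted folds also use the composition factors. With library size alone, the median of all genes shifted by -0.11 to -0.36 and the share of age calls that were higher went from 46.4% to 36.2% (myoepithelial), 62.8% to 39.2% (luminal HS), 47.1% to 18.1% (luminal AV), 65.1% to 49.5% (fibroblast) and 55.0% to 22.4% (vascular endothelial).

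Text names all 8 members in each type, at most 4 called genes of the 31 listed others with the largest fold per comparison and the genes most like each member. Sc5d, Ebp, Lrp1, Acat2 and Pmvk in myoepithelial cells were named after their values were seen. The members, gene lists and markers were chosen with earlier results of these data known. Motifs were searched on both strands with Python 3. Fits were tested on simulated data. DESeq2 1.42.0 and other alternatives are given in the closing section. Sequences of Sqle, Fdps and Fdft1 promoters were not used here, and some genes, 1 of them placed high by the likeness rule, are not reported here.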

Additional observations from a re-analysis of the deposited data

Results flagged for a closer look

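The age difference varied among the 5 cell types for Sqle (edgeR adjusted p = 0.00162), Hmgcs1 (0.00472), Fdps (0.00489), Cyp51 (0.0265), Insig1 (0.0346) and Idi1 (0.0415), by the test of the difference itself. Among aged mice, Idi1 in vascular endothelial cells was at 8.38 CPM in Aged B and at 2.67 to 3.18 in the other 3, a gap of 0.912 of the whole range. Chance alone flags about 1 in 20 such groups, and 48 were examined.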

How the results depend on the processing

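The count of 7 called members in myoepithelial cells was 5 to 7 when each mouse was left out, 6 with DESeq2 and 7 with the replicate block, and fell to 2 only when libraries were thinned to equal totals, with 3 members left to test. The letters A to D name different animals and deviations of same-lettered mice correlated between -0.17 and 0.07, so they do not pair the samples. With the replicate block, the single calls in luminal HS, luminal AV and fibroblasts each went to 0. They also went to 0 after thinning, and to 0 to 1 when a mouse was left out. With no filter on low counts, luminal HS had 3 calls, luminal AV 2 and fibroblasts 0. With library size alone (chosen after seeing the data), luminal AV and luminal HS had 0 and vascular endothelial cells 3. Luminal AV against fibroblasts gave 1 call with DESeq2 and 1 to 3 when a mouse was left out, and against myoepithelial cells 2 in young and 8 in aged mice alone. For the fits of a single age the share of all genes called was not counted. The count of members whose age difference varied was 3 to 6. None of the reversals concerned a called gene: Srebf2 in luminal AV (0.035) and in fibroblasts (0.36) under the replicate block, Fdps in fibroblasts with DESeq2 (0.47), and with library size alone Fdps (-0.24) and Fdft1 (-0.17) in luminal AV and Srebf2 (-0.28) in vascular endothelial cells. Leaving out a mouse gave log2 ranges that crossed 0 for Fdps (-0.23 to 0.51), Fdft1 (-0.11 to 0.31) and Srebf2 (-0.21 to 0.16) in luminal AV, for Fdps (-1.13 to 0.64), Cyp51 (-0.70 to 0.45) and Srebf2 (-0.47 to 0.23) in fibroblasts, and for Srebf2 (-0.042 to 0.20) and Insig1 (-0.28 to 0.025) in vascular endothelial cells. The Idi1 difference in myoepithelial cells ran from 2.79 to 8.49, the latter without Young A, where both young mice are at 0. Of the 29 likenesses that the rule selects, 8 were selected again with at least 50 cells per profile and 14 with Spearman's correlation. The causes were not tested, and precision is limited by the young myoepithelial (40 to 187 cells) and aged fibroblast libraries.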
